A study of Mus musculus with 23 samples.

Results

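The antigen presentation genes of mouse liver were followed as a set of 10: the class I genes H2-K1, H2-D1 and B2m, the peptide supply genes Tap1, Psmb8 and Psmb9, and the class II genes Cd74, H2-Aa, H2-Ab1 and H2-Eb1. They were taken by symbol from a table of read counts for 54838 genes. All 10 had reads in every library and were among the 11969 genes kept for testing. RNA came from liver of C57BL/6J mice that had received EPDR1 (ependymin-related protein 1), FCN2 (ficolin-2), FSTL3 (follistatin-like 3) or LBP (lipopolysaccharide-binding protein), each made recombinantly, or vehicle. The protein dose was 1 µg/g of body weight, repeated for 3 injections spaced by 1 day. Batch 2 held EPDR1, FCN2, FSTL3 and a vehicle group, with 4 libraries each. Batch 1 held LBP with 3 libraries (replicates 2, 3 and 4) and a vehicle group of 4. The labels give neither sex nor age, do not name the vehicle, and do not state that the libraries of a group come from different animals. The p-values therefore cover only the spread between these samples, which may be technical in part. Each protein was set against the vehicle of its own batch, to see which liver transcripts differed.

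Class I molecules pair a heavy chain, here H2-K1 or H2-D1, with the light chain beta-2 microglobulin (B2m), and show peptides from inside the cell to CD8 T cells. Those peptides are cut by the proteasome, in which Psmb8 and Psmb9 replace the constitutive subunits Psmb5 and Psmb6 to form the immunoproteasome, and are carried into the endoplasmic reticulum by a transporter of which Tap1 is a subunit. Class II molecules, of an alpha and a beta chain (H2-Aa with H2-Ab1, and H2-Eb1 in the I-E molecule), are held by the invariant chain Cd74 until they are loaded with peptide. C57BL/6 mice do not express the alpha chain of I-E. In liver, class I genes are active in nearly all cells, while class II genes are known mainly from Kupffer cells, dendritic cells, B cells and sinusoidal endothelium. Nlrc5 is the coactivator of class I genes, and Ciita that of class II genes.

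On GRCm38, 8 of the 10 genes, all but B2m and Cd74, lie on chromosome 17, in the major histocompatibility complex. H2-K1 spans 33996017 to 34000333 (minus strand) and H2-D1 spans 35262730 to 35267499 (plus strand). Psmb9 (34181988 to 34187764, minus), Tap1 (34187553 to 34197225, plus) and Psmb8 (34197721 to 34201454, plus) follow each other. The class II chains come next, with H2-Ab1 at 34263209 to 34269418 (plus), H2-Aa at 34282744 to 34287827 (minus) and H2-Eb1 at 34305877 to 34316199 (plus). B2m is on chromosome 2 (122147686 to 122153083, plus). Tap1 and Psmb9 share 212 exon bases on opposite strands, and reads there could not be assigned by strand. The same holds for 186 bases that Psmb8 shares with Gm20496, and Cd74 shares 12 bases with Mir5107 on the same strand. Of the stretches of 50 bases in its transcript, H2-K1 shared 8.79% with another gene and H2-D1 14.3%, so that reads from these stretches could go uncounted or be counted to a relative. B2m, Psmb8, Psmb9 and the class II genes shared none.

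RefSeq promoters (GRCm38.p6, 250 bases before to 50 after the gene's start) were taken for 8 of the 10 genes. None was found for H2-Ab1, and Cd74 was left out. The promoters of 6 genes that are described together below are shown 5′ to 3′ on the gene's own strand, because their genes stand for each class in the comparisons. Capitals mark matches, on either strand, to letters chosen after the sequences had been seen: GAANNGAAA (an interferon regulatory factor, or IRF, type motif), the NF-kB type letters GGG, 2 free bases, TT, 1 free base and CC, ATTGG (the inverted CCAAT of the Y box), GCAACT (the core of the X box) and TGACG (a cyclic AMP element type motif).
H2-K1, chr17:34000298-34000597, minus strand: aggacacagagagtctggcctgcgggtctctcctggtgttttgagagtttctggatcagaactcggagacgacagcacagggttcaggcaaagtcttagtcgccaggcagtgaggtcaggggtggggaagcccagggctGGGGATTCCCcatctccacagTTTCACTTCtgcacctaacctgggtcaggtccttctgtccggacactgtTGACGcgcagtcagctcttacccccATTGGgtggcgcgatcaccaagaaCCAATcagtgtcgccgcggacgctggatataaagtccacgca
H2-D1, chr17:35262844-35263143, plus strand: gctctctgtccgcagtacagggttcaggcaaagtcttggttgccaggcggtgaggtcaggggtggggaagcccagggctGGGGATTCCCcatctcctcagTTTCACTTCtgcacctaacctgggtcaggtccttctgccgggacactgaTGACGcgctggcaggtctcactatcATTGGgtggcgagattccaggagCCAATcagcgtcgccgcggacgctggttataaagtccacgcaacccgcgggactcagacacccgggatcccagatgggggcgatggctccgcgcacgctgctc
B2m, chr2:122147437-122147736, plus strand: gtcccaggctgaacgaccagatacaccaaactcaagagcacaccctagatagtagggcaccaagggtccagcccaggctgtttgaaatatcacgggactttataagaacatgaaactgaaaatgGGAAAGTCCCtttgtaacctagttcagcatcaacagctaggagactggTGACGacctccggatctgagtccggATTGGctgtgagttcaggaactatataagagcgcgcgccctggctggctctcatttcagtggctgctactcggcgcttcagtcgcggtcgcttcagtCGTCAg
Tap1, chr17:34187306-34187605, plus strand: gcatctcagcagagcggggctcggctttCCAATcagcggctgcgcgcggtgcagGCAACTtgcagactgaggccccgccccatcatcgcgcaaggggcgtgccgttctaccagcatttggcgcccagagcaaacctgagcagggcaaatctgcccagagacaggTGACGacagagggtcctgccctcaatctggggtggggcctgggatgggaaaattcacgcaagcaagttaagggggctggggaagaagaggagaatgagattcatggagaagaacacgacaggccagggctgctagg
H2-Aa, chr17:34287774-34288073, minus strand: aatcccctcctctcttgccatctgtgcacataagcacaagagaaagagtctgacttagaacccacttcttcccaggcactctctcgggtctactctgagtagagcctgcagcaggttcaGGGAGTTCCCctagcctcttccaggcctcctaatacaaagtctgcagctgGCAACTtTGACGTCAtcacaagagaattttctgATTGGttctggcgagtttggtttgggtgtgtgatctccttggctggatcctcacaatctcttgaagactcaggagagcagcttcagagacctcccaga
H2-Eb1, chr17:34305617-34305916, plus strand: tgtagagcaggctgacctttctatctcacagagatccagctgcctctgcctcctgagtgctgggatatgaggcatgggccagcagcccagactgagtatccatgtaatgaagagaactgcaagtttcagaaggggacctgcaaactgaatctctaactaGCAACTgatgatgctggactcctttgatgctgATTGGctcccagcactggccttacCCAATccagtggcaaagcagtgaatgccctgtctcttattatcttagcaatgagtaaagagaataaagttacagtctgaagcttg

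Both heavy chain promoters hold the same order of matches: NF-kB type, IRF type, TGACG and a pair of ATTGG. B2m holds the NF-kB type, TGACG and ATTGG matches, but not the IRF type letters in the spacing chosen here. It does hold gaaactgaaa, where GAA and GAAA stand further apart than in those letters, a spacing that was not searched for. H2-Aa and H2-Eb1 hold the X box core followed by ATTGG. In H2-Aa the X box core is followed by TGACGTCA, which matches TGACG on both strands, and an NF-kB type match lies upstream. The Tap1 promoter shares 275 bases (34187306 to 34187580) with that of Psmb9, which is read from the other strand, so both hold the X box core, ATTGG and TGACG. Psmb8 holds none of the 5 motifs. Among 27025 RefSeq mouse promoters of this length, the IRF type letters occur in 7.56%, the NF-kB type in 4.71%, ATTGG in 37.9%, GCAACT in 10.9% and TGACG in 21%. A match is a match of letters and not a measured binding site.

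Total gene counts ran from 773499 to 21892416 per library (median 3712802). Levels are given in CPM, the usual depth-scaled counts, with library sizes scaled by TMM, and as mean ± SD, with n = 4 except for LBP, where n = 3. A gene was called when edgeR's quasi-likelihood test gave a Benjamini-Hochberg adjusted p under 0.05 over all 11969 genes, and log2 fold changes are given ± SE. LBP replicate 2 stood apart: albumin (Alb) reached 3493 CPM in it, against 53990 to 90820 CPM in the other 22 libraries, and results are therefore also given without it. The FSTL3 libraries stood apart in another way. Their log2 fold changes rose with exon length across genes (Spearman rho = 0.458 over 11969 genes, which are not independent replicates), so the FSTL3 results for the 10 genes, and for the gene and marker lists as counts, are also given with every library's exon length trend removed. The sum of 6 hepatocyte markers was 74390 to 119700 CPM in those 22 libraries and 33030 CPM in LBP replicate 2.

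Per kilobase of exon, the order of the genes was alike in all 6 groups. B2m was highest, at 1270 to 3293 CPM per kb as group means, then H2-K1 at 208.6 to 370.0, H2-D1 at 81.6 to 162.9 and Cd74 at 19.9 to 54.8. H2-Aa, H2-Ab1 and H2-Eb1 followed at 5.07 to 22.4 CPM per kb, with Psmb8 at 3.98 to 7.49, in an order that changed between groups. Tap1 and Psmb9 were lowest in each group, at 1.79 to 3.96 CPM per kb. The 3 class II chains and the 3 peptide supply genes thus rest on few reads. Psmb9 had 3 counts and H2-Eb1 4 counts in LBP replicate 2, while B2m never had fewer than 825.

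**Figure D1:**
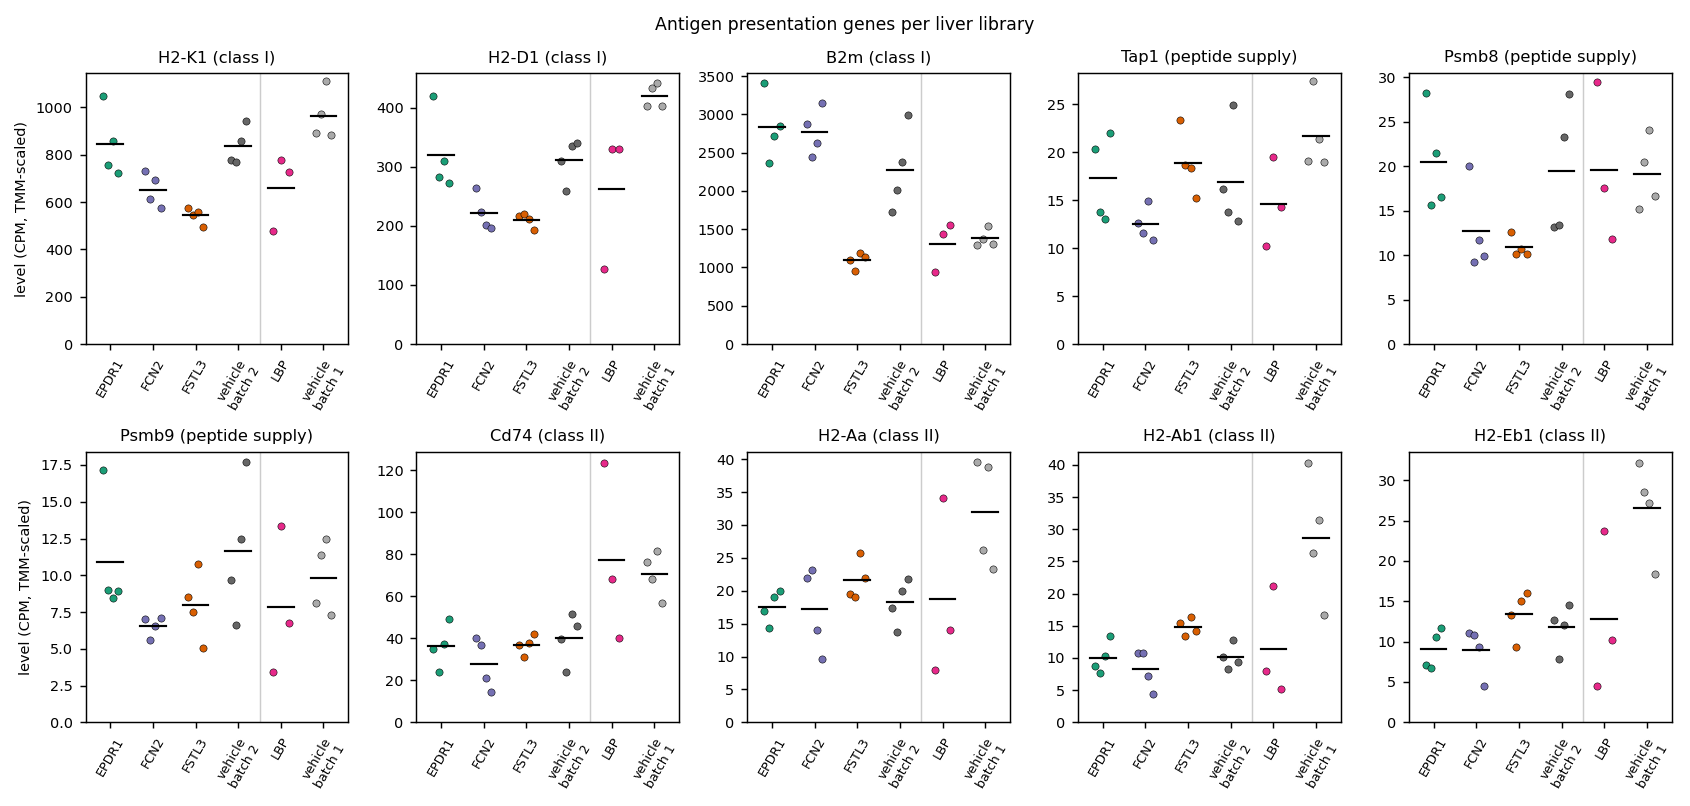
Level of each of the 10 genes (y axis, CPM) in every liver library (points) by group (x axis), with the group mean as a bar; each panel starts at 0. As a group mean, B2m is lowest after FSTL3 (1093 CPM, with libraries at 949 to 1189 CPM), though LBP replicate 2 is at 934.8 CPM. The 4 class II genes are high in the vehicle of batch 1.

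After FSTL3, B2m and H2-K1 of class I and the immunoproteasome gene Psmb8 were lower, and no class II gene was called. B2m had 1098, 949, 1189 and 1134 CPM in the FSTL3 libraries, against 1719, 2013, 2377 and 2991 CPM in the vehicle libraries of batch 2. The groups did not overlap, and B2m fell by 1.06 ± 0.21 on the log2 scale (edgeR adjusted p = 0.000458). H2-K1 had 576.5, 547, 556 and 496 CPM after FSTL3 and 779, 769, 860 and 944 CPM in vehicle. All FSTL3 libraries were below all vehicle libraries, and H2-K1 fell by 0.62 ± 0.19 (edgeR adjusted p = 0.0123), a call that ended with no filter on low counts (edgeR adjusted p = 0.112). With the exon length trend removed, neither B2m (-0.12, edgeR adjusted p = 0.769) nor H2-K1 (-0.30, edgeR adjusted p = 0.259) was called. H2-D1, at 217, 220.1, 212 and 192 CPM after FSTL3 and 310.5, 259, 335 and 339 CPM in vehicle, did not overlap either. Its log2 fold change of -0.56 ± 0.23 missed the threshold (edgeR adjusted p = 0.0563) and passed without LBP replicate 2 (edgeR adjusted p = 0.000513).

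Of the peptide supply genes, Psmb8 had 12.6, 10.2, 10.7 and 10.2 CPM in the FSTL3 libraries and 13.2, 13.4, 23.2 and 28.1 CPM in vehicle. The groups did not overlap, although the highest FSTL3 library was close to the lowest vehicle library. Psmb8 fell by 0.80 ± 0.29 (edgeR adjusted p = 0.0317). Leaving out vehicle replicate 4 gave -0.57 (edgeR adjusted p = 0.148), and leaving out vehicle replicate 3 or FSTL3 replicate 2, 3 or 4 also ended the call. Psmb9 had 7.96 ± 2.36 CPM after FSTL3 and 11.6 ± 4.71 CPM in vehicle (log2 -0.49 ± 0.32, edgeR adjusted p = 0.242). Tap1 had 18.9 ± 3.37 and 16.9 ± 5.51 CPM (log2 0.19 ± 0.22, edgeR adjusted p = 0.543), with overlapping groups.

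edgeR called 0 of the 4 class II genes after FSTL3, and 0 had an unadjusted p under 0.05. H2-Ab1 had 15.4, 13.4, 16.4 and 14.2 CPM in the FSTL3 libraries, against 10.2, 8.24, 12.9 and 9.37 CPM in vehicle. Every FSTL3 library was above every vehicle library, with a log2 fold change of 0.58 ± 0.33 (edgeR adjusted p = 0.171). H2-Aa (21.6 ± 3.06 against 18.2 ± 3.48 CPM, log2 0.26 ± 0.30) and H2-Eb1 (13.4 ± 2.96 against 11.8 ± 2.83 CPM, log2 0.22 ± 0.32) overlapped between FSTL3 and vehicle. Cd74, the invariant chain, had 37.0 ± 4.40 CPM after FSTL3 and 40.2 ± 11.9 CPM in vehicle (log2 -0.10 ± 0.32).

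After FSTL3, then, 3 of 10 members were called lower and 0 higher. Of all genes tested, 39.2% were called, 16% lower and 23.2% higher. In 4 of the 10 all FSTL3 libraries were below all vehicle libraries, as in 23.8% of all genes, and in 1 they were above, as in 29.9%. The median log2 fold change was -0.29 over the 10 members and 0.06 over all genes. Without LBP replicate 2 the members called were 4, all lower, and 56.8% of all genes were called (31.3% higher and 25.4% lower).

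**Figure D2:**
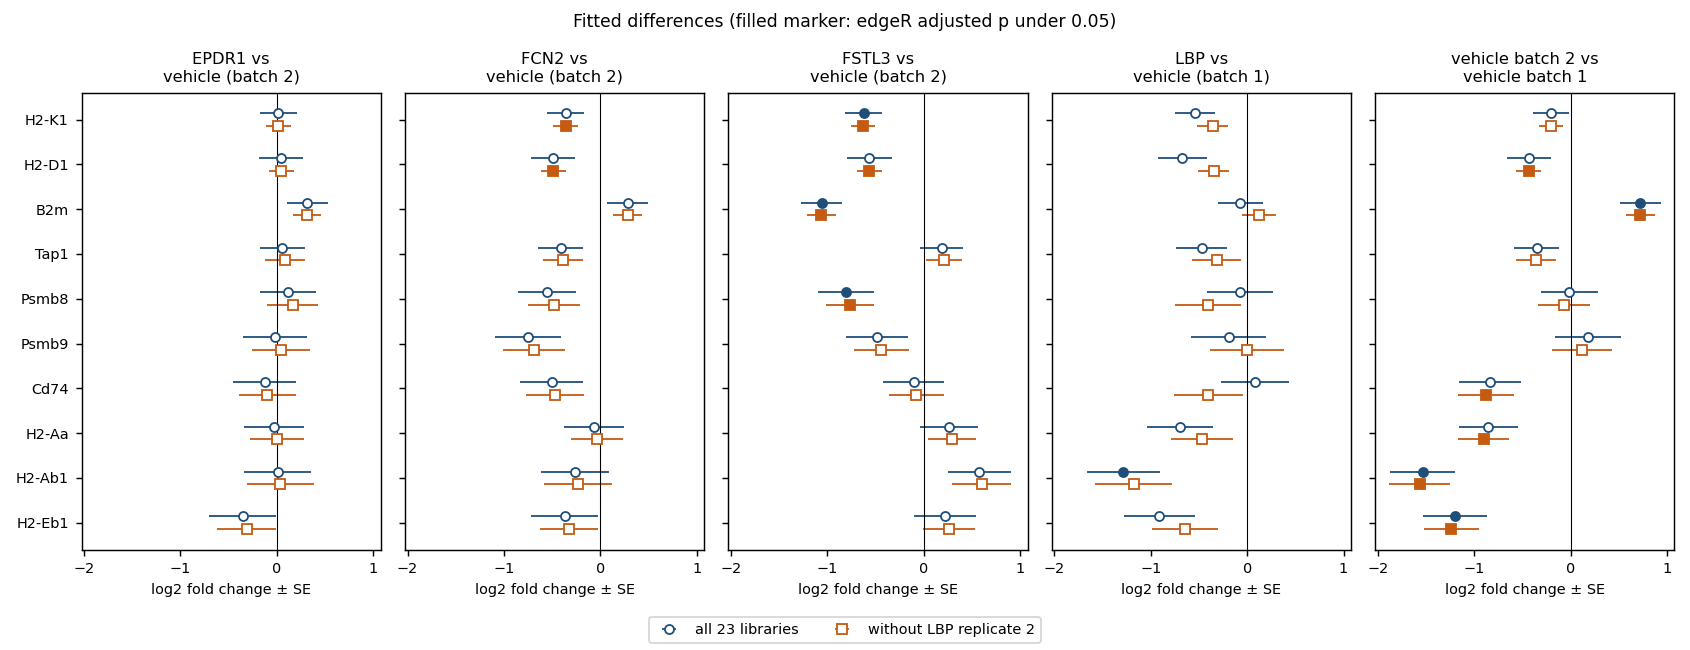
Log2 fold change (x axis, ± SE) of each gene (y axis) in the 5 comparisons, with all 23 libraries (circles) and without LBP replicate 2 (squares); filled markers have an edgeR adjusted p under 0.05. After FSTL3 the filled markers are class I genes and Psmb8, all below 0, and in the comparison of vehicles the class II genes are below 0 and B2m above.

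The trend with exon length was seen over all genes, and the 10 genes differ in length without following it closely. B2m has 860 exon bases, H2-Eb1 1184, Cd74 1410, H2-Ab1 1637 and H2-Aa 1874, while H2-D1 has 2579, H2-K1 2608, Psmb8 2736, Psmb9 3659 and Tap1 5476. Among the 1197 genes of the first of 10 bins by exon length, where B2m, Cd74 and H2-Eb1 lie, the median log2 fold change after FSTL3 was -0.73 and the middle 50% ran from -1.25 to -0.12. B2m, at -1.06, lay within that range, and H2-Eb1 (0.22) and Cd74 (-0.10) lay above it. In the next bin the middle 50% ran from -0.87 to 0.09, and both H2-Aa (0.26) and H2-Ab1 (0.58) lay above it. H2-K1 (-0.62) and H2-D1 (-0.56) were within the range of -0.68 to 0.17 of their bin, and Psmb8 (-0.80) was below it. Tap1, at 0.19, was close to the median of its bin.

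With the exon length trend of each library removed (rho then -0.03), 2 members were called higher and 0 lower, where 15.5% of all genes were called higher and 12.2% lower (27.7% in all). B2m was then at -0.12 ± 0.25, H2-K1 at -0.30 ± 0.19 and Psmb8 at -0.50 ± 0.28 (edgeR adjusted p = 0.769, 0.259 and 0.196). H2-D1 was at -0.23 ± 0.23, Psmb9 at -0.37 ± 0.32 and Tap1 at 0.03 ± 0.22 (edgeR adjusted p = 0.4999, 0.421 and 0.9398). H2-Ab1 (1.15 ± 0.33, edgeR adjusted p = 0.0126) and H2-Eb1 (0.98 ± 0.35, edgeR adjusted p = 0.0401) were the genes called, and H2-Aa was at 0.78 ± 0.31 (edgeR adjusted p = 0.0674). Cd74 took the other sign, at 0.56 ± 0.29 (edgeR adjusted p = 0.158). In both versions the 4 class II genes had higher log2 fold changes than B2m, H2-K1, H2-D1, Psmb8 and Psmb9. Tap1 was above Cd74 as counted (0.19 against -0.10) and below all 4 class II genes with the trend removed. The cause of the trend with length was not tested.

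**Figure D3:**
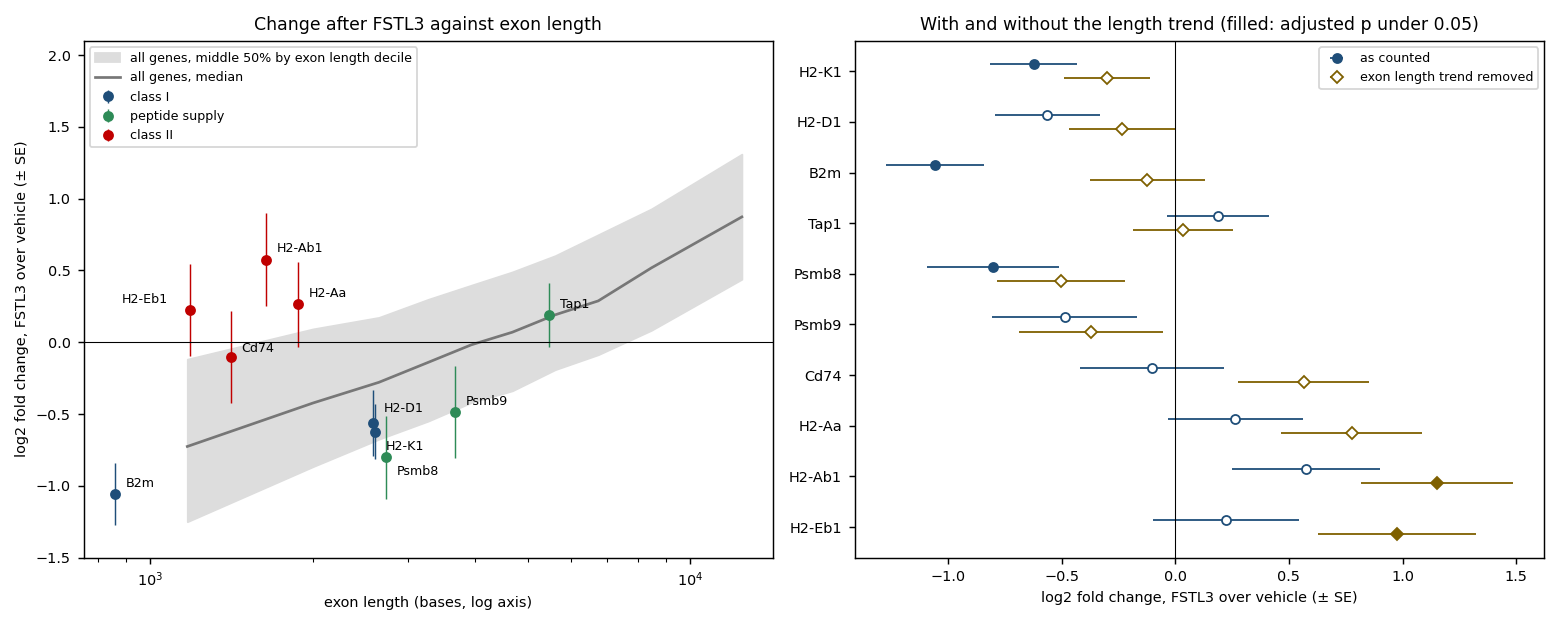
Left, log2 fold change after FSTL3 (y axis, ± SE) against exon length (x axis, log scale) for the 10 genes, with the median (line) and middle 50% (band) of all genes in 10 bins of length. Right, the same values (x axis) for each gene as counted (circles) and with the length trend removed (diamonds), filled where the edgeR adjusted p is under 0.05: B2m moves from -1.06 to -0.12 and H2-Ab1 from 0.58 to 1.15.

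Other genes of both pathways were described from lists of related genes. Their counts after FSTL3 stand beside 16% of all genes called lower and 23.2% called higher. With the length trend removed these shares were 12.2% and 15.5%. Of 13 other class I heavy chains tested (of 20 listed), 4 were called lower after FSTL3 and 1 higher (median log2 -0.47). H2-Q10, a secreted class I molecule of liver, had 790 ± 47.3 CPM after FSTL3 and 1717 ± 237 CPM in vehicle and fell by 1.12 ± 0.26 (edgeR adjusted p = 0.00174). H2-T22 fell by 0.83 ± 0.19, though 44.7% of its 50-base stretches are shared with relatives, and H2-T24 rose by 1.24 ± 0.31 (edgeR adjusted p = 0.0016 and 0.00287). In the peptide loading list 3 of 7 were lower and 0 higher (median log2 -0.50). They were Pdia3 (-1.64 ± 0.19) and Calr (-1.20 ± 0.20), an oxidoreductase and a chaperone that hold the class I heavy chain, and Tapbpl (-0.63 ± 0.20), a relative of tapasin (edgeR adjusted p = 4.99e-07, 6.99e-05 and 0.0149). With the length trend removed, 1 of the 13 heavy chains was higher and 3 lower, H2-Q10 (-1.12), H2-T22 (-0.67) and H2-T24 (1.65) among the calls, and 2 of the 7 loading genes were lower, Pdia3 (-1.43) and Calr (-0.94) but not Tapbpl (-0.25, edgeR adjusted p = 0.462). Tap2, the partner of Tap1, had 7.46 ± 1.15 CPM after FSTL3 and 8.33 ± 1.34 CPM in vehicle (edgeR adjusted p = 0.976).

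Proteasome genes outside the set were mostly lower as counted, and fewer of them with the length trend removed. Among all genes, 16% were called lower as counted and 12.2% with the trend removed. The constitutive subunits Psmb5 (-1.28 ± 0.24), Psmb6 (-0.84 ± 0.19) and Psmb7 (-0.46 ± 0.18) were all called lower after FSTL3 (edgeR adjusted p = 0.000196, 0.00134 and 0.0489). Of the third inducible subunit and the activators, 3 of 4 were lower: Psme2 (-1.46 ± 0.15), Psme3 (-1.19 ± 0.26) and Psme1 (-0.97 ± 0.34), with edgeR adjusted p of 2.24e-07, 0.00105 and 0.0281. Psmb10, that inducible subunit, had 15.4 ± 0.36 CPM after FSTL3 and 15.2 ± 2.70 CPM in vehicle (edgeR adjusted p = 0.998). With the length trend removed, none of the 3 constitutive subunits was called by edgeR (Psmb5, of 899 exon bases, was at -0.40 with an adjusted p of 0.297), and Psme2 (-0.91) and Psme3 (-0.94) were lower while Psme1 was not called (-0.55, edgeR adjusted p = 0.205).

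For the next 2 lists, too, 16% of all genes were called lower after FSTL3 and 23.2% higher, or 12.2% and 15.5% with the length trend removed. Among 7 further class II pathway genes tested (of 13 listed), 3 were lower after FSTL3 and 0 higher (median log2 -0.76). They were Ifi30 (-1.52 ± 0.22), a lysosomal thiol reductase, the protease Ctss (-1.24 ± 0.29), and the costimulatory molecule Cd86 (-0.82 ± 0.28), with edgeR adjusted p of 9.43e-06, 0.00178 and 0.0266. Of 14 regulators tested, 2 were higher and 3 lower (median log2 -0.20). Ciita had 2.66, 2.00, 2.53 and 2.92 CPM after FSTL3 and 0.50, 0.64, 1.25 and 1.04 CPM in vehicle, without overlap, and rose by 1.73 ± 0.42 (edgeR adjusted p = 0.00217). Nlrc5 had 43.7, 40.6, 52.2 and 43.3 CPM after FSTL3 and 15.4, 16.3, 20.3 and 29.8 CPM in vehicle. These groups did not overlap either, and Nlrc5 rose by 1.15 ± 0.33 (edgeR adjusted p = 0.00855). Nlrc5 and Ciita are long, with 8493 and 9535 exon bases, and genes of their length bin had a median of 0.52 and a middle 50% from 0.08 to 0.93, below both. With the length trend removed Ciita was at 1.17 ± 0.42 (edgeR adjusted p = 0.0419) and Nlrc5 at 0.66 ± 0.32, no longer called (edgeR adjusted p = 0.138). Stat2 (-0.96 ± 0.25) and Irf1 (-0.72 ± 0.22), which act in interferon signalling, fell (edgeR adjusted p = 0.0042 and 0.0104). Rfxank, part of the complex that binds the X box, fell by 0.88 ± 0.28 (edgeR adjusted p = 0.014). With the trend removed, 1 regulator was higher and 5 lower, and of the class II pathway genes 1 was higher and 2 lower, with Ifi30 at -0.67 still called and Ctss (-0.56) and Cd86 (-0.70) not (edgeR adjusted p = 0.0342, 0.162 and 0.0774).

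Markers of the cells known for class II moved in both directions after FSTL3. The shares of all genes called were 16% lower and 23.2% higher, or 12.2% and 15.5% with the length trend removed. The summed level of 12 Kupffer cell markers was 178 to 190.1 CPM after FSTL3 and 195 to 508 CPM in vehicle, with 5 of 11 tested markers lower, among them Marco, C1qc and Cd5l. Not called were Csf1r (0.36), Adgre1 (-0.03), Clec4f (-0.18), Vsig4 (-0.89), C1qa (-1.12) and C1qb (-1.11). Sinusoidal endothelial markers summed to 591 to 718 CPM after FSTL3 and 235 to 304 CPM in vehicle, with 5 of 9 higher, among them Stab1, Stab2 and Ptprb. For dendritic cells the 9 markers summed to 16.2 to 21.8 CPM after FSTL3 and 6.23 to 15.6 CPM in vehicle, and Zbtb46 and Clec9a, the 2 tested, were both higher. Cd209a, a marker of that list that was not tested, was lower in all FSTL3 libraries than in all vehicle libraries. The 8 B and plasma cell markers summed to 5.24 to 6.98 CPM after FSTL3 and 7.46 to 17.3 CPM in vehicle. T and NK cell markers reached 4.5 CPM in sum after FSTL3 and 6.64 CPM in vehicle, too low for any of the 10 to be tested, and no marker of these 5 lists was at 0 throughout either group. In bulk liver, fewer cells of a type and less RNA per cell cannot be told apart, and the part of these cells in the class II levels was not tested. Marco, C1qc and Cd5l have 1925 to 2036 exon bases and Stab1, Stab2 and Ptprb 8757 to 13333, so their directions also go with length. Among shorter endothelial markers, Oit3 (2788 bases) and Lyve1 (2919) were at 0.73 and 0.86 and Clec4g (2462) at -0.09, none of them called. With the length trend removed, 4 of 11 Kupffer markers were lower, 5 of 9 endothelial markers higher and 1 of 2 dendritic cell markers higher, Clec9a but not Zbtb46 (0.59, edgeR adjusted p = 0.0892). Csf1r, Adgre1 and Clec4f were then at 0.28, 0.17 and 0.16, none of them called, and the other Kupffer markers tested were negative.

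The LBP comparison rested on 3 libraries that differed widely from each other in the class II genes. H2-Ab1 had 7.93, 21.2 and 5.11 CPM in LBP replicates 2, 3 and 4, against 40.3, 26.2, 31.4 and 16.6 CPM in the vehicle of batch 1. LBP replicate 3 lay within the vehicle range and the others below it. H2-Ab1 fell by 1.28 ± 0.38 (edgeR adjusted p = 0.043), as 1 of 10 members called lower and 0 higher, where 0.969% of all genes were called lower and 6.73% higher (7.7% in all). Without LBP replicate 2 it was at -1.18 ± 0.40 (edgeR adjusted p = 0.17), edgeR called no member (3 had an unadjusted p under 0.05), and 0.727% of all genes were called. Leaving out LBP replicate 4 (-0.84, edgeR adjusted p = 0.131) or vehicle replicate 1, 2 or 3 also ended the call, as did the replicate block (edgeR adjusted p = 0.145), a fit of only the libraries compared (edgeR adjusted p = 0.5495) and limma-voom (adjusted p = 0.11).

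H2-Eb1 had 4.53, 23.8 and 10.2 CPM after LBP and 32.2, 28.5, 27.2 and 18.4 CPM in vehicle (log2 -0.91 ± 0.37, edgeR adjusted p = 0.138). H2-Aa had 7.93, 34.2 and 14 CPM after LBP and 39.6, 26.2, 38.8 and 23.3 CPM in vehicle (log2 -0.70 ± 0.34, edgeR adjusted p = 0.227). In both, LBP replicates 2 and 4 were below every vehicle library and replicate 3 was among them. Without LBP replicate 3, H2-Aa (-1.45), H2-Ab1 (-2.29), H2-Eb1 (-1.65) and H2-D1 (-0.87) were called lower (edgeR adjusted p = 0.00592, 0.000608, 0.00618 and 0.0391), as 4 of 10 members, where 3.99% of all genes were called lower and 13.5% higher (17.4% in all). That fit keeps LBP replicate 2 and 1 other LBP library.

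Cd74 did not go with the class II chains in LBP replicate 2. It had 123.5, 68.3 and 40.1 CPM after LBP and 76.3, 68.5, 81.7 and 56.9 CPM in vehicle (log2 0.08 ± 0.35, and -0.40 ± 0.35 without LBP replicate 2). Per kilobase, Cd74 stood at 20.7 times the level of H2-Aa in LBP replicate 2, a ratio that rests on 7 counts of H2-Aa and 109 of Cd74. It stood at 2.66 and 3.81 times in LBP replicates 3 and 4, and at 2.56 to 3.47 times in vehicle. Over the other 22 libraries this ratio did not exceed 3.81. LBP replicate 2 also had the highest summed Kupffer cell markers, 1299 CPM, against 233 and 385 CPM in the other LBP libraries and 338 to 483 CPM in vehicle. The markers of that list did not move together. All LBP libraries were below all vehicle libraries in C1qc and Csf1r, while C1qa was called higher (log2 2.50 ± 0.70, edgeR adjusted p = 0.0332). It was the 1 called of 11 tested, where 6.73% of all genes were called higher, and the list's median log2 fold change was -0.28. Without LBP replicate 2, edgeR called 0 of the 11. Pancreatic acinar markers summed to 2064, 21.5 and 735.5 CPM in LBP replicates 2, 3 and 4 and to 7.78 to 98.8 CPM in vehicle. Their part in the class II levels was not tested.

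No class I gene was called after LBP. H2-K1 had 479, 776 and 729 CPM after LBP and 892, 972, 1113 and 883 CPM in vehicle, and H2-D1 had 126.9, 330.3 and 329 CPM after LBP and 402, 433, 442.5 and 403.5 CPM in vehicle. Neither gene overlapped between the groups, as was so for 6.23% of all genes with LBP below vehicle. The log2 fold changes were -0.54 ± 0.21 for H2-K1 and -0.67 ± 0.25 for H2-D1 (edgeR adjusted p = 0.112 and 0.105). B2m had 1313 ± 333 CPM after LBP and 1379 ± 114 CPM in vehicle (log2 -0.07 ± 0.23, edgeR adjusted p = 0.906). Tap1 (-0.47 ± 0.27), Psmb8 (-0.07 ± 0.34) and Psmb9 (-0.19 ± 0.39) did not pass, and Psmb8 took either sign among the settings tried.

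Of the related lists after LBP, 2 of 7 peptide loading genes were called higher, Pdia3 (0.66 ± 0.20) and the chaperone Canx (0.72 ± 0.22), with edgeR adjusted p of 0.0419 and 0.0461. The share of all genes called higher was 6.73%. Psme1 (1.32 ± 0.37) and Fcgrt (1.52 ± 0.45), the heavy chain of the neonatal Fc receptor, were also higher (edgeR adjusted p = 0.0334 and 0.043). Without LBP replicate 2, edgeR called none of these 4 genes and 0 of the 7 loading genes, of which 3 had an unadjusted p under 0.05. Psmb10 had 219.8 CPM in LBP replicate 2, 18.2 and 17.5 CPM in LBP replicates 3 and 4, and 21.7 to 25.1 CPM in vehicle.

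After FCN2 edgeR called 0 of the 10 members, where 0.81% of all genes were called (0.159% higher and 0.652% lower). H2-D1 and Psmb9 had an unadjusted p under 0.05, 2 of 10 members, where 2069 of the 11969 genes did, and DESeq2 and limma-voom called 0 members. H2-K1 had 733, 612, 692 and 575 CPM in the FCN2 libraries, against 779, 769, 860 and 944 CPM in the vehicle of batch 2. All FCN2 libraries were below all vehicle libraries, as in 9.48% of all genes (log2 -0.36 ± 0.19, edgeR adjusted p = 0.335). H2-D1 had 264, 223, 202 and 196 CPM after FCN2 and 310.5, 259, 335 and 339 CPM in vehicle, with FCN2 replicate 1 just above the lowest vehicle library (log2 -0.49 ± 0.23, edgeR adjusted p = 0.275). Without LBP replicate 2 both were called lower (edgeR adjusted p = 0.0466 and 0.0109), as 2 of 10 members, where 10.1% of all genes were called lower and 8.81% higher (18.9% in all).

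B2m, the light chain, was not lower after FCN2. It had 2772 ± 305 CPM after FCN2 and 2275 ± 548 CPM in vehicle (log2 0.28 ± 0.21, edgeR adjusted p = 0.511). The ratio of B2m to H2-K1 plus H2-D1, per kilobase, was 8.72, 8.86, 8.86 and 12.3 in the FCN2 libraries and 4.77, 5.92, 6.01 and 7.05 in vehicle, so all FCN2 libraries were above all vehicle libraries. Of single genes tested, 9.12% had all FCN2 libraries above all vehicle libraries. The ratio itself was not tested, and with all 23 libraries edgeR called neither B2m nor the heavy chains after FCN2. The ratio was 4.40 ± 0.55 after FSTL3 and 7.39 ± 0.83 after EPDR1. In batch 1 it was 4.35 ± 0.37 after LBP and 3.01 ± 0.05 in vehicle. B2m has fewer exon bases (860) than H2-K1 (2608) and H2-D1 (2579), and the ratio keeps the length trend. With that trend removed, B2m, H2-K1 and H2-D1 were at -0.12, -0.30 and -0.23 after FSTL3. With H2-Q10 added to the heavy chains, the ratio was 3.79 to 5.18 after FCN2, 2.35 to 3.01 after FSTL3 and 2.66 to 3.66 in vehicle. After LBP it was then 1.05 to 2.67, on both sides of the 1.80 to 1.915 in vehicle.

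Psmb8 (12.7 ± 4.97 against 19.5 ± 7.42 CPM), Psmb9 (6.57 ± 0.68 against 11.6 ± 4.71 CPM) and Tap1 (12.5 ± 1.79 against 16.9 ± 5.51 CPM) overlapped between FCN2 and vehicle. Their log2 fold changes were -0.55 ± 0.30, -0.75 ± 0.34 and -0.41 ± 0.24 (edgeR adjusted p = 0.35, 0.263 and 0.377). The class II chains summed to 43.9, 44.8, 30.5 and 18.6 CPM in the FCN2 libraries and 40.3, 29.9, 44.8 and 45.8 CPM in vehicle. FCN2 replicate 4 was lowest in each of the 4 class II genes, with 14.4 CPM of Cd74 and 4.47 CPM each of H2-Ab1 and H2-Eb1. The median log2 fold change was -0.39 over the 10 members and 0.02 over all genes.

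After EPDR1, edgeR called 0 of the 10 members, as 0% of all genes were called, while 493 of the 11969 genes and none of the members had an unadjusted p under 0.05. DESeq2 and limma-voom also called no gene. All 10 members overlapped between EPDR1 and vehicle. The largest log2 fold changes in size were those of H2-Eb1 (-0.35 ± 0.35, with 9.04 ± 2.49 against 11.8 ± 2.83 CPM) and B2m (0.32 ± 0.21, with 2832 ± 439 against 2275 ± 548 CPM). H2-K1 was at 0.02 ± 0.19, with 1050.0, 756, 859 and 724 CPM after EPDR1. EPDR1 replicate 1 was the highest of its group in H2-K1, H2-D1, B2m, Psmb8 and Psmb9, and also in Nlrc5 (45.9 CPM, against 15.4 to 23.4 CPM in the other EPDR1 libraries).

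EPDR1, FCN2 and FSTL3 share the same 4 vehicle libraries, so their values are set side by side without a further comparison. H2-K1 was at 0.02, -0.36 and -0.62 on the log2 scale after EPDR1, FCN2 and FSTL3, and H2-D1 at 0.05, -0.49 and -0.56. B2m was at 0.32, 0.28 and -1.06, and H2-Ab1 at 0.01, -0.26 and 0.58. These values are as counted, and the trend with exon length was strongest after FSTL3 (rho 0.458, against -0.01 after EPDR1 and 0.112 after FCN2). With the trend removed, H2-K1, H2-D1, B2m and H2-Ab1 were at -0.30, -0.23, -0.12 and 1.15 after FSTL3.

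The vehicles of the 2 batches differed in the class II genes. H2-Ab1 had 10.2, 8.24, 12.9 and 9.37 CPM in batch 2, against 40.3, 26.2, 31.4 and 16.6 CPM in batch 1. It was lower by a log2 fold change of -1.53 ± 0.34 (edgeR adjusted p = 0.00518), did not overlap, and was called in all 17 other settings. H2-Eb1 had 12.7, 7.87, 12 and 14.6 CPM in batch 2 and 32.2, 28.5, 27.2 and 18.4 CPM in batch 1 (log2 -1.20 ± 0.33, edgeR adjusted p = 0.0211). Leaving out batch 1 replicate 1 or 3, or batch 2 replicate 2, ended its call, with edgeR adjusted p up to 0.0863. H2-Aa (18.2 ± 3.48 against 32.0 ± 8.40 CPM, log2 -0.85 ± 0.31) and Cd74 (40.2 ± 11.9 against 70.8 ± 10.8 CPM, log2 -0.84 ± 0.32) did not overlap either. They missed the threshold (edgeR adjusted p = 0.0728 and 0.0957) and passed without LBP replicate 2 (edgeR adjusted p = 0.0117 and 0.0295).

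B2m was higher in the vehicle of batch 2. It had 1719, 2013, 2377 and 2991 CPM in batch 2, all above the 1292, 1373, 1541 and 1308 CPM in batch 1 (log2 0.72 ± 0.21, edgeR adjusted p = 0.029). The call ended when any of 6 vehicle libraries was left out (edgeR adjusted p up to 0.122), and with the exon length trend removed B2m was at 0.34 (edgeR adjusted p = 0.418). H2-K1 overlapped (838 ± 81.5 in batch 2 and 965 ± 106.5 CPM in batch 1, log2 -0.20 ± 0.19). H2-D1 did not (311 ± 36.9 and 420.2 ± 20.4 CPM, log2 -0.43 ± 0.23, edgeR adjusted p = 0.233). Psmb8, Psmb9 and Tap1 were at -0.01, 0.18 and -0.35, with edgeR adjusted p of at least 0.36.

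Between the vehicles, 1 of 10 members was called higher and 2 lower, where 5.41% of all genes were called higher and 6.76% lower (12.2% in all). In 5 members batch 2 lay wholly below batch 1 and in 1 wholly above, as in 15.8% and 15.9% of all genes. Without LBP replicate 2 the calls were 1 higher and 5 lower, where 30.3% of all genes were called (14.9% higher and 15.4% lower). Of 7 further class II pathway genes, 2 were lower, H2-DMa (1.16 ± 0.28 against 4.54 ± 2.27 CPM) and H2-DMb1 (1.46 ± 0.33 against 4.2 ± 2.01 CPM), the chains of the molecule that helps to load peptide (log2 -1.74 ± 0.38 and -1.34 ± 0.42, edgeR adjusted p = 0.0049 and 0.0377). Ciita was at -1.40 ± 0.47 (edgeR adjusted p = 0.056), with no read in replicate 2 of batch 1. Pdia3 (1.09 ± 0.18) and Psme2 (0.67 ± 0.16) were higher (edgeR adjusted p = 0.000723 and 0.0086).

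Cell markers moved between the vehicles too, where 6.76% of all genes were called lower and 5.41% higher. Sinusoidal endothelial markers summed to 235 to 304 CPM in batch 2 and 312 to 439 CPM in batch 1, with 4 of 9 lower, and Kupffer cell markers to 195 to 508 CPM and 338 to 483 CPM, with Csf1r lower among 11 tested. Dendritic cell markers summed to 6.23 to 15.6 CPM in batch 2 and 10.2 to 13.7 CPM in batch 1. B and plasma cell markers summed to 7.46 to 17.3 CPM and 16 to 17.2 CPM, with Ighm lower. The part of these cells in the class II difference was not tested, and batch and vehicle group cannot be told apart here.

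**Figure D4:**
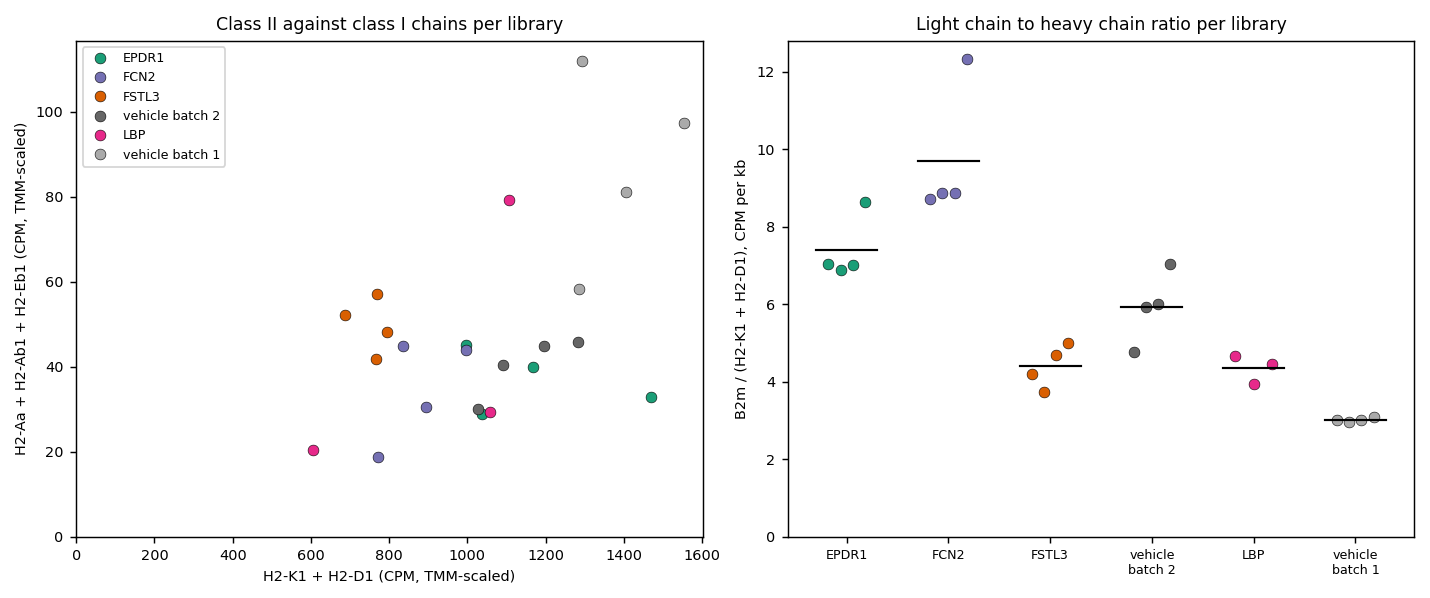
Left, summed class II chains (y axis, CPM) against summed heavy chains H2-K1 and H2-D1 (x axis, CPM) for each library, by group. Right, ratio of B2m to H2-K1 plus H2-D1 per kilobase (y axis) by library and group (x axis), with group means as bars: the FCN2 libraries (8.72 to 12.3) lie above the vehicle of batch 2 (4.77 to 7.05). Of single genes tested, 9.12% had FCN2 wholly above that vehicle, and the ratio was not tested.

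Over all 6 groups, the order of mean levels differed between the classes. Summed H2-Aa, H2-Ab1 and H2-Eb1 averaged 36.7 ± 7.26 CPM after EPDR1, 34.4 ± 12.4 after FCN2, 49.8 ± 6.47 after FSTL3 and 40.2 ± 7.28 in the vehicle of batch 2. In batch 1 they averaged 42.9 ± 31.6 CPM after LBP and 87.2 ± 23 in vehicle. The vehicle of batch 1 was the highest, and its lowest library (58.3 CPM) was above every library of batch 2, while the other groups overlapped with one another in part. Summed H2-K1 and H2-D1 averaged 1168 ± 214 CPM after EPDR1, 874 ± 96.0 after FCN2, 754 ± 45.9 after FSTL3 and 1149 ± 113 in the vehicle of batch 2, and 924 ± 276 after LBP and 1385 ± 126 in the vehicle of batch 1. EPDR1 and the vehicle of batch 2 lay within their spread of each other.

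Within groups the class II genes varied together. On log2(CPM + 1) as deviations from the group mean, over the 22 libraries other than LBP replicate 2, each class II gene correlated with the mean of the other 3 at Pearson r of 0.878 (Cd74), 0.944 (H2-Aa), 0.891 (H2-Ab1) and 0.906 (H2-Eb1). Libraries of a group share a mean and differ in depth, so these are descriptions. Of the class I and peptide supply genes, H2-K1 (0.838), Psmb8 (0.831), Psmb9 (0.806) and H2-D1 (0.757) followed the mean of the others more closely than B2m (0.590) and Tap1 (0.349). The genes most like the class II mean were Atp6v1b2 (0.857), Slc18a1 (0.784), Inpp5d (0.784), Hk1 (0.762) and Parp8 (0.749). Those most like the class I and peptide supply mean were Apol9a (0.876), H2-Q7 (0.819), Usp18 (0.818), Nlrc5 (0.812) and Gbp9 (0.810).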

How the data were processed

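Liver RNA of 23 libraries in 6 groups was measured by RNA-seq, from 800 ng of total RNA each with paired reads of 50 bases, per the labels' protocols. The authors deposited raw read counts per gene and each gene's exon length. Reads were aligned with STAR 2.6.0c to GRCm38, per the submitters' processing notes. Exon reads were summed per gene by featureCounts 1.6.3 against Ensembl annotation 95, per the file headers, which record no strand option. Total counts ran from 773499 to 21892416, so low genes in shallow libraries are the least precise.

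The members, gene lists, motifs and tests were chosen with earlier results of these data known. From the counts, edgeR 4.0.16 in R 4.3.3 (filterByExpr, TMM, robust quasi-likelihood fit over all 23 libraries with a mean per group, Benjamini-Hochberg adjustment) compared each protein with the vehicle of its batch, and the 2 vehicles. The SE is the size of the log2 fold change over the square root of F, and the fit was tested on simulated data. Besides the members, up to 3 called genes per pathway list with the smallest p and a set of pathway genes, 1 of which is not reported here, were considered for naming, together with the 5 genes most like each class.

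Alternatives were RLE size factors, no filter or a mean of at least 5 CPM, the libraries compared alone, a replicate block, removal of the exon length trend (a smooth offset per library), DESeq2 1.42.0, limma-voom 3.58.1, and leaving out each library. Tables were handled in Python 3.11.15 with pandas 2.3.3 and numpy 2.4.6. Replicate libraries differed by more than sampling noise (lowest chi-square per degree of freedom 2.27 over 33 pairs).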

Additional observations from a re-analysis of the deposited data

Results flagged for a closer look

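Psmb9 in EPDR1 replicate 1 stood apart from its group, at 17.18 CPM, where the other EPDR1 libraries had 8.47 to 8.97 CPM. Its gap to the nearest library was 0.943 of the group's range, above Dixon's 95% critical value for 4 libraries. In all, 50 groups of 4 libraries were tested, and chance alone gives about 1 such value in 20 groups.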

How the results depend on the processing

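Of 830 recomputed fold changes of members, 59 changed sign, none of them called in either fit and none over 0.565 in size. Genes called (EPDR1 0, FCN2 97, FSTL3 4695, LBP 922, vehicles 1456) moved as follows. For FCN2 they were 64 with RLE, 9 with no filter, 155 with the stricter filter, 51 with the replicate block, 154 with the length trend removed, 763 with DESeq2 and 1409 with only the libraries compared. With only those libraries they were 2 for EPDR1, 7929 for FSTL3, 0 for LBP and 3962 for vehicles, and with no filter 7190, 404 and 659 for FSTL3, LBP and vehicles. LBP gave 11 with the block, 3 with limma-voom and 1206 with DESeq2 (1007 higher and 199 lower). Members called were 1 (FCN2), 5 (FSTL3), 0 (LBP) and 6 (vehicles) with only the libraries compared, and for LBP 0 with the block, 0 with limma-voom and 3 with DESeq2. The cause of these shifts was not tested.

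Leaving out 1 library gave 0 to 1 genes for EPDR1, 0 to 2314 for FCN2, 3853 to 6950 for FSTL3, 89 to 2145 for LBP and 857 to 3715 for vehicles. Members called were 0 to 2 for FCN2, 2 to 4 for FSTL3, 0 to 4 for LBP and 1 to 6 for vehicles. The higher share of FCN2 calls was 19.6%, and 31.2% with RLE, 40.4% with only the libraries compared, 56.7% with DESeq2 and 46.6% without LBP replicate 2. For LBP it was 87.4%, and 66.7% with limma-voom and 70.8% without LBP replicate 2.

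The replicate numbers were not taken to pair the samples, since the labels tie them to nothing shared and 9 of 27 same-numbered pairs had r over 0.1 (-0.123 to 0.293, median 0.0525), against 10 of 81 other pairs (median -0.0195). As a hint from the data, 13 of 23 libraries correlated best with their own number. The block gave 0, 51, 5040, 11 and 1674 genes and 0, 0, 3, 0 and 3 members, in the order above.

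Signs changed only in log2 fold changes that were not called. After EPDR1, H2-Ab1 was at -0.0071 with no filter and -0.0076 with the length trend removed, Psmb9 at 0.0031 with the trend removed, 0.031 with only the libraries compared and 0.069 with limma-voom, and H2-K1 at -0.0036 with limma-voom. With the trend removed H2-Aa was at 0.0037 after FCN2 and Cd74 at 0.56 after FSTL3. After LBP, Psmb8 was at 0.020 with RLE, 0.052 with only the libraries compared and 0.046 with DESeq2. Cd74 was at -0.033 with no filter, -0.0070 with the block, -0.22 with the trend removed and -0.069 with limma-voom. Between vehicles, Psmb8 was at 0.0013 with RLE and 0.010 with DESeq2.

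Leaving out 1 library, EPDR1 values ran from -0.10 to 0.085 for H2-K1, -0.11 to 0.12 for H2-D1, -0.073 to 0.28 for Tap1, -0.084 to 0.35 for Psmb8, -0.34 to 0.26 for Psmb9, -0.32 to 0.029 for Cd74, -0.16 to 0.070 for H2-Aa and -0.15 to 0.13 for H2-Ab1. They ran from -0.23 to 0.14 for H2-Aa after FCN2 and -0.30 to 0.037 for Cd74 after FSTL3. After LBP they ran from -0.23 to 0.12 for B2m, -0.41 to 0.18 for Psmb8, -0.78 to 0.015 for Psmb9 and -0.40 to 0.38 for Cd74, and between vehicles from -0.25 to 0.16 for Psmb8 and -0.10 to 0.43 for Psmb9.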
